A study of Mus musculus with 28 samples.

Results

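The Qiagen siRNA is a small interfering RNA that the labels name by its supplier and give as directed at cyclin D1. It was compared with the mean of 4 other siRNAs that also lower Ccnd1 mRNA in the same cells, labelled FLAG, HA, Nature and Life. The groups were set by the labels, but the comparison was proposed with Ccnd1 levels known. It set 2 libraries with Qiagen siRNA, 1 from each of 2 clones, against 8 libraries with the others, out of 28 in the study. No library with the control siRNA labelled SCR entered it.

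The study measured poly(A) RNA by stranded, single-read sequencing in mouse embryonic fibroblasts of strain C57BL/6x129Sv transformed with RAS and DNP53. RNA was taken on the morning after an overnight transfection with RNAiMAX. All 10 libraries came from clones #12 and #14 of cells with a tagged cyclin D1 (the labels write Ctag-Cyclin D1). Qiagen siRNA was given to clones #12 and #14, as were the Nature and Life siRNAs, which the labels also direct at cyclin D1 (a published siRNA and one from Life Technologies), and the FLAG and HA siRNAs, directed at the epitope tags. Untreated and SCR libraries of both clones are given beside some values. Each clone is 1 cell line and gave 1 library per siRNA, and nothing in the labels says that libraries came from separate cultures. The p-values therefore measure the spread of libraries around clone and group levels. That spread came from a fit of 24 libraries in 13 groups, not from the 10 alone. The fit also held untreated and leptomycin B (20 ng/mL) libraries of clones #12 and #14, and untagged clones #18 and #25 with FLAG or HA siRNA. The remaining libraries were clone #18 lines labelled mCherry/PURO or FLAG-mCherry-HA/PURO, with FLAG or HA siRNA. Sample titles also state an n of 3 or 4, which no label explains.

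Cyclin D1 is the G1 cyclin that activates CDK4 and CDK6, which phosphorylate the retinoblastoma protein and release E2F factors. RAS signalling raises it, and cyclin E then acts with CDK2 at entry into S phase. An siRNA cuts a transcript to which its guide strand pairs along its length. A guide can also lower other transcripts, mostly through pairing of its bases 2 to 8, the seed, with their 3′ UTRs.

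The 10 libraries held 26558256 to 69442170 counts, and the Qiagen libraries 27014738 and 38935391. The ribosomal transcript Rn45s took 0.375% and 0.475% of counts with Qiagen siRNA, against 0.346% to 3.48% with the other 4, and passed 2% in HA clone #12, Nature clone #14 and Life clone #14. Vim ran from 3974 to 8013 CPM (counts scaled to library size) and S100a4 from 2232 to 4098 CPM over the 10 libraries, but the fibroblast markers Thy1 and Fap reached 0 in some libraries and Col1a1 was as low as 0.315 CPM. Of the markers of other cell types, 4 of 9 macrophage ones (Emr1, Lyz2, Aif1 and Tyrobp) were at 0 counts in all 10. So were 5 of 10 myogenic markers, Myod1 and Myog among them, and 2 of 10 neural markers, Rbfox3 among them. All 10 endothelial and all 10 epithelial markers had counts in some library. The epithelial list summed to 122 and 2872 CPM with Qiagen siRNA, against 233 to 3697 CPM with the others. In bulk RNA, fewer cells of a type and less RNA per cell cannot be told apart.

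Ccnd1 (chromosome 7, 144929931 to 144939831, GRCm38) stayed higher with Qiagen siRNA than with any other. It measured 326 CPM in clone #12 and 322 CPM in clone #14 with Qiagen siRNA. The other 8 libraries ran from 50.4 CPM to 225 CPM, with a median of 103 CPM. Among these the order of levels was HA (225 and 220 CPM), FLAG (181 and 132 CPM), Life (73.0 and 53.1 CPM) and Nature (64.1 and 50.4 CPM), the first of each pair being clone #12. The groups did not overlap, which was in part fixed, since the comparison was proposed with these levels known. Life and Nature siRNA did overlap with each other. Relative to SCR siRNA, 29.1% of Ccnd1 remained in clone #12 and 25.1% in clone #14 with Qiagen siRNA, against 3.90% to 19.6% with the others. The log2 difference of Qiagen from the mean of the 4 was 1.61 (SE 0.18), a 3.06-fold difference, and is a description, since the comparison was proposed with these levels known. Set against single siRNAs it was 0.54 from HA, 1.05 from FLAG, 2.36 from Life and 2.50 from Nature. The mean thus came more from Nature and Life siRNA than from the tag siRNAs. The difference from HA siRNA did not pass the test (edgeR quasi-likelihood test, adjusted p = 0.196). That value is given as a limit only, since Ccnd1 levels were known when the comparison was proposed.

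The 2 other D cyclins did not pass the test against the mean of the 4, which hides differences among the 4. Ccnd2, which can stand in for cyclin D1, had 281 and 615 CPM with Qiagen siRNA, against 46.0 to 708 CPM with the others (log2 difference 0.70, SE 0.24; edgeR quasi-likelihood test, adjusted p = 0.0955). Ccnd3 had 46.5 and 83.7 CPM with Qiagen siRNA, against 24.1 to 144 CPM (log2 difference -0.39, SE 0.18; edgeR adjusted p = 0.209). Both overlapped widely between groups. Against single siRNAs, Ccnd3 was lower than with HA (-0.95; edgeR adjusted p = 0.0259) and Nature siRNA (-1.02; edgeR adjusted p = 0.0122) and higher than with Life siRNA (1.17; edgeR adjusted p = 0.00683). It was also lower than the mean of FLAG and HA (-0.86; edgeR adjusted p = 0.0228). Ccnd2 was higher than with Nature siRNA (2.35; edgeR adjusted p = 0.000468) and than the mean of Nature and Life (1.01; edgeR adjusted p = 0.0388), and did not pass against FLAG, HA or Life siRNA.

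**Figure D1:**
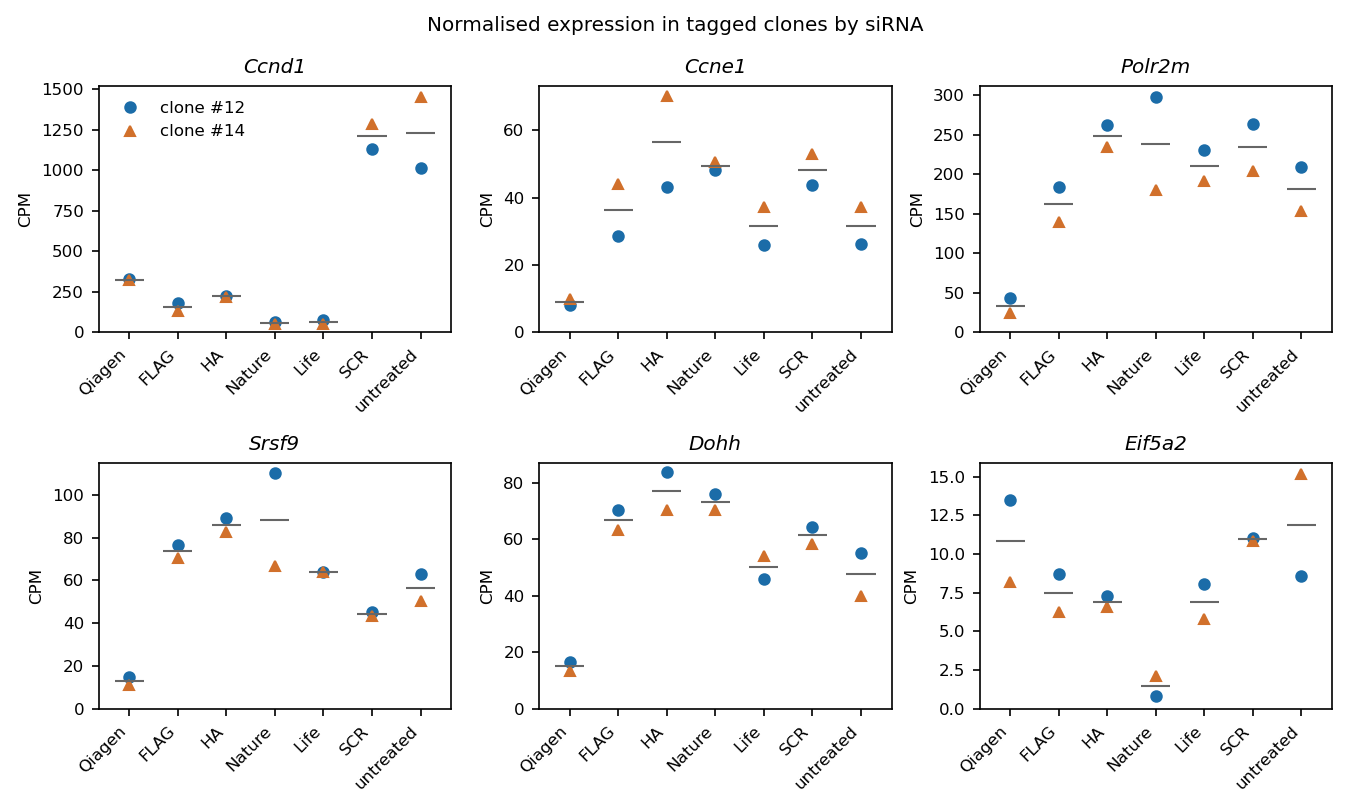
CPM (y axis, from 0) of 6 genes by siRNA (x axis) in tagged clones #12 (circles) and #14 (triangles), with the mean of both clones as a line; SCR values were scaled with all 28 libraries. Ccnd1 was higher with Qiagen siRNA than with the other 4, and Ccne1, Polr2m, Srsf9 and Dohh lay below every other library.

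Over all genes, 941 of 14924 differed between Qiagen siRNA and the mean of the other 4 (6.31%; edgeR quasi-likelihood test with clone as a block, Benjamini-Hochberg adjusted p under 0.05). Of these 469 rose (3.14%) and 472 fell (3.16%). The numbers were alike but the sizes were not: 34 genes rose and 144 fell by at least 1 on the log2 scale. In 940 of the 941 the sign of the difference was the same in both clones. The exception, singled out after its values were seen, was Unc5c, a netrin receptor gene, with a difference of 1.49 in clone #12 and -0.32 in clone #14. The genes were called on the average over both clones of these same libraries. Such calling largely fixes a shared sign, so the 940 is a description and no test of agreement between clones. Over all 14924 genes, the deviations of both clones from their own means with Qiagen siRNA correlated at 0.37. Without Qiagen clone #12 the number of genes called was 182, and without Qiagen clone #14 it was 280. It was 613 without FLAG clone #12, 528 without FLAG clone #14 and 563 without Life clone #14.

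A difference from a mean can come from 1 of the 4, so the order within each clone was read too. Among the called genes, 369 lay above all 4 other siRNAs in both clones (2.47% of genes tested) and 442 lay below all 4 (2.96%). Together this gave 811 genes, and 173 without Qiagen clone #12, 270 without Qiagen clone #14, 471 without FLAG clone #14 and 511 without Life clone #14. When each of the 4 had to be passed singly, 118 genes were lower than each (0.791%) and 3 were higher than each (0.0201%). The 3 were Csf1, Kcnf1, a potassium channel subunit gene, and Senp2, a SUMO protease gene, the last 2 named after their values were seen. Kcnf1 differed by 0.89 (SE 0.13; edgeR adjusted p = 0.00129) and Senp2 by 0.78 (SE 0.09; edgeR adjusted p = 0.000118) on the log2 scale. The split was thus near even by order within the clones, and almost all lower only where a gene had to be called against each of the 4 singly.

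**Figure D2:**
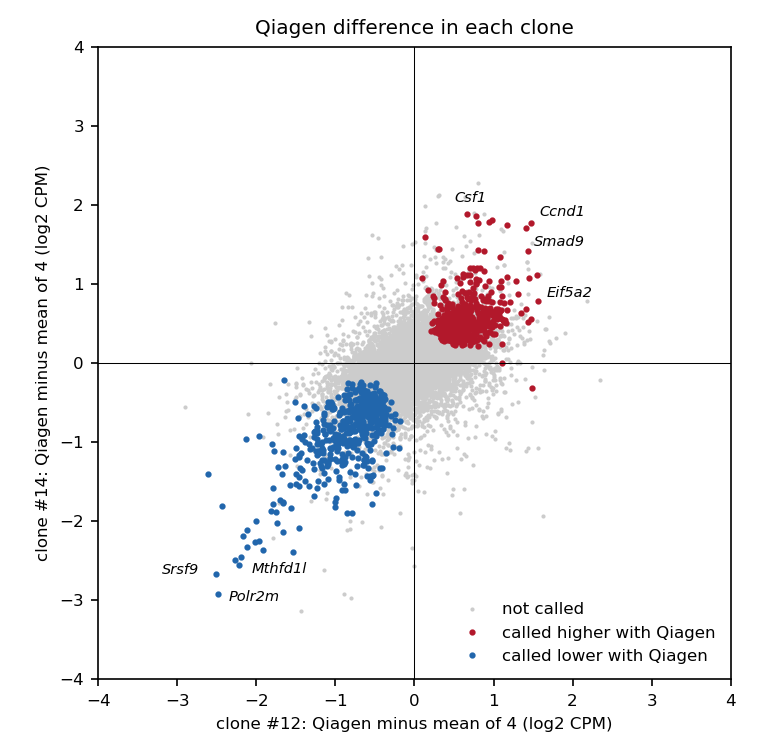
Log2 CPM difference of Qiagen siRNA from the mean of the 4 other siRNAs in clone #12 (x axis) and clone #14 (y axis) for genes of at least 1 CPM; each point is a gene, red called higher and blue called lower. The called-lower genes reach past -2 in both clones, while the called-higher genes stay nearer 0.

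The 12 largest falls, among called genes of at least 1 CPM that lay below all 4 others in both clones, left 15.4% to 22.9% of the level with the other siRNAs. Polr2m, which encodes an RNA polymerase II subunit, had 42.9 and 24.1 CPM with Qiagen siRNA, against a lowest, median and highest of 140, 211 and 298 CPM (log2 difference -2.70, SE 0.17; edgeR adjusted p = 7.18e-07). Srsf9, a splicing factor, had 14.6 and 11.1 CPM, against 63.9, 73.6 and 110 CPM (-2.60, SE 0.21; edgeR adjusted p = 4.31e-06). Both Qiagen libraries were far under the lowest other library for each gene. Pdlim1, an actin-associated PDZ and LIM protein, had 21.0 and 37.7 CPM, against 75.5, 168 and 235 CPM (-2.40, SE 0.24; edgeR adjusted p = 3.93e-05). Mthfd1l, a mitochondrial enzyme of one-carbon metabolism, had 23.1 and 19.4 CPM, against 101, 111 and 122 CPM (-2.38, SE 0.13; edgeR adjusted p = 2.24e-07). Mthfd1l varied little among the other siRNAs, and its SCR levels of 112 and 103 CPM lay in the same range.

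Ccne1, the gene of cyclin E1, which drives entry into S phase with CDK2, was among them. It had 8.07 and 9.78 CPM with Qiagen siRNA, against a lowest, median and highest of 26.0, 43.6 and 70.1 CPM with the others (log2 difference -2.23, SE 0.16; edgeR adjusted p = 1.87e-06). It measured 26.2 and 37.1 CPM in untreated cells and 43.8 and 52.9 CPM with SCR siRNA, so the Qiagen libraries were also the low ones there. Dohh, the hydroxylase that completes the hypusine residue of eIF5A, had 16.6 and 13.3 CPM, against 46.0, 70.4 and 83.7 CPM (-2.14, SE 0.15; edgeR adjusted p = 1.87e-06). Mdh1, cytosolic malate dehydrogenase, had 52.6 and 41.9 CPM, against 179, 206 and 234 CPM (-2.14, SE 0.15; edgeR adjusted p = 1.82e-06). Rps6ka4, the kinase MSK2 downstream of MAP kinases, had 20.9 and 21.3 CPM, against 77.1, 90.0 and 119 CPM (-2.13, SE 0.15; edgeR adjusted p = 2.10e-06). None of these 4 overlapped between groups.

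The other 4 were Spryd3, a SPRY-domain gene (log2 difference -2.32), Stard3nl, a late endosome membrane protein (-2.19), Them6 (-2.14) and Rfx2, a transcription factor of ciliated and germ cells (-2.27). Rfx2 was scarce, with 0.305 and 0.438 CPM in Qiagen libraries, against 1.13 to 3.62 CPM. It was also the only one of the 12 whose call was lost when 1 library was left out, without Qiagen clone #12 or without Qiagen clone #14 (highest edgeR adjusted p 0.0910). The other 11 stayed called without each of the 10 libraries in turn.

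**Figure D3:**
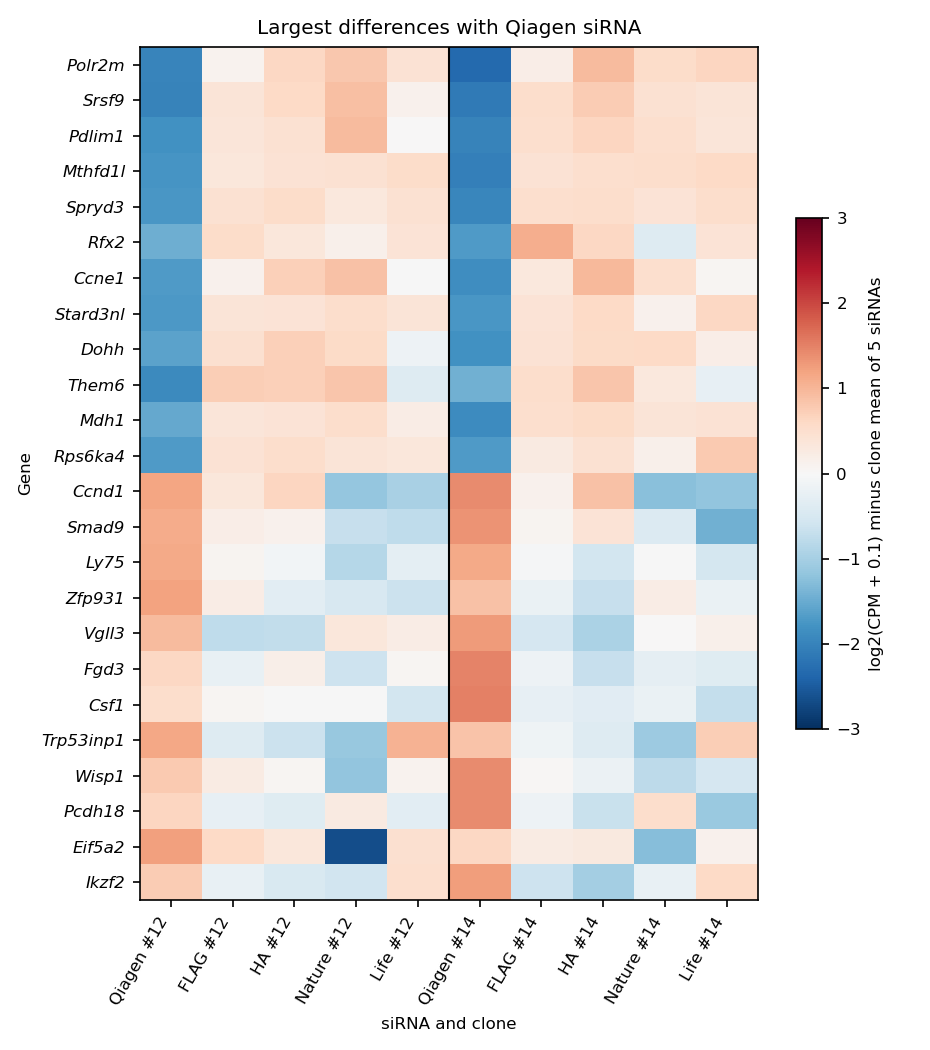
Difference of log2(CPM + 0.1) from the clone mean of the 5 siRNAs (color, blue low and red high) for the 12 largest falls and 12 largest rises with Qiagen siRNA (rows) in the 10 libraries (columns, clone #12 left and clone #14 right). The falls are darkest blue in the 2 Qiagen columns, with a few pale blue cells elsewhere (Rfx2, Dohh and Them6), while several rises vary among the other siRNAs too.

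The 3′ UTRs of the genes that fell shared a 7-letter word. All 16384 words of 7 letters were counted in the 3′ UTRs of 11043 genes with at least 1 CPM, 1 GENCODE M21 transcript per gene. In clone #12 the word with the largest excess, in percentage points, among the 312 genes lower by at least 1 on the log2 scale was GTGCTGC, held by 79 of them (25.3%) and by 13.1% of the rest. Read in clone #14, whose libraries had no part in that choice, it was held by 109 of 268 such genes (40.7%), against 12.7% of the rest. Counted afresh, clone #14 ranked the same word first, as did both clones at log2 differences of -0.5 and -1.5. These are descriptions of the transcripts, and genes are not replicates.

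The word was in the 3′ UTR of 8 of the 12 largest falls. The sites of 5 of these are shown, since they cover the genes described in most detail, with the 2 places where the coding sequence of Ccnd1 itself holds the same letters. Each is in the sense of the mRNA, 5′ to 3′, on GRCm38 (mm10) from GENCODE M21 transcripts, with the word in capitals.
Polr2m 3′ UTR, chr9:71479059-71479088, minus strand: actcttatcagataGTGCTGCttacaccct
Srsf9 3′ UTR, chr5:115332981-115333010, plus strand: tgggacggaaatcaGTGCTGCatcttcatg
Ccne1 3′ UTR, first site, chr7:38098441-38098470, minus strand: gcctggagctccctGTGCTGCcttggaggt
Ccne1 3′ UTR, second site, chr7:38098016-38098045, minus strand: ctcttattttgtaaGTGCTGCtatgtctat
Dohh 3′ UTR, chr10:81388305-81388334, plus strand: aagccagccccagcGTGCTGCatgaataaa
Mdh1 3′ UTR, chr11:21557263-21557292, minus strand: ctatcatgttgttaGTGCTGCaatctaaat
Ccnd1 coding sequence, first place, chr7:144939661-144939690, minus strand: gaacaccagctcctGTGCTGCgaagtggag
Ccnd1 coding sequence, second place, chr7:144939600-144939629, minus strand: tcctcaacgaccggGTGCTGCgagccatgc
Outside the capitals the sites differ from each other. In Ccnd1 the word starts at bases 18 and 79 of an 888-base coding sequence, and its 3′ UTR held no copy. Spryd3 and Stard3nl held 1 copy and Rps6ka4 held 2, whereas the 3′ UTRs of Pdlim1, Mthfd1l, Rfx2 and Them6 held none. Rfx2 had 2 copies and Them6 had 1 in the coding sequence. The sequence of the Qiagen siRNA was not used here, so whether its seed pairs with this word was not tested.

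Among all called-lower genes with a 3′ UTR in the count, 209 of 459 held the word (45.5%), against 13.4% of the 11043. Among those lower than each of the other 4 siRNAs it was 72 of 116 (62.1%). Among called-higher genes it was 35 of 452 (7.74%). Seen from the word, 209 of 1482 holders were called lower (14.1%, 95% Wilson interval 12.4% to 16.0%), against 250 of 9561 genes without it (2.62%, 2.31% to 2.95%). These intervals cover counting error only, and genes are not replicates. The word was chosen for its excess among genes lower with Qiagen siRNA in these same libraries. A higher share among called-lower genes was thus in part fixed in advance, and these shares are a description. Of the called-lower genes 250 thus lacked the word, and most holders did not pass the test.

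The letters next to the word and its place in the transcript went with different shares. Where an A followed the word in the 3′ UTR, 75 of 375 genes were called lower (20.0%), against 134 of 1107 genes where none did (12.1%). Genes with the last 6 letters alone, TGCTGC, were called lower in 129 of 3297 cases (3.91%). Those with the word in the coding sequence but not in the 3′ UTR were called lower in 94 of 2239 cases (4.20%), against 156 of 7322 with it in neither place (2.13%). The share was highest, of these groups, for the word followed by A in the 3′ UTR.

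The word overlaps a known microRNA motif. The miR-15 and miR-16 family, which lowers several G1 cyclins, carries the pairing letters GCAGCAC at bases 3 to 9, and 0 of 1679 mature mouse miRNAs in RefSeq (GRCm38.p6) carry them at bases 2 to 8. miR-16-5p is shown with its seed in capitals.
mmu-miR-16-5p: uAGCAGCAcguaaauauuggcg
Genes whose 3′ UTR held the match to this seed, TGCTGCT, but not GTGCTGC were called lower in 62 of 1724 cases (3.60%), with a median log2 difference of 0.09. Their median thus lay slightly above 0.

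**Figure D4:**
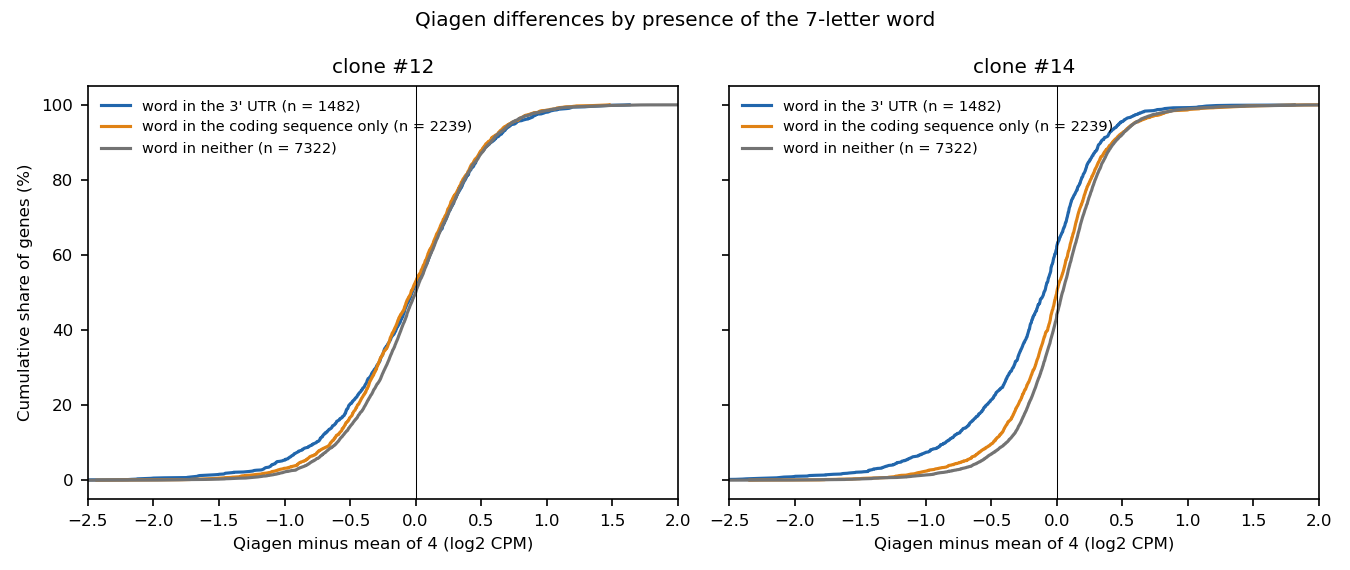
Cumulative share of genes (y axis, %) by the log2 CPM difference of Qiagen siRNA from the mean of the 4 others (x axis) in each clone, for 1482 genes with the 7-letter word in the 3′ UTR, 2239 with it in the coding sequence only and 7322 with it in neither. In clone #14 the curve of 3′ UTR holders lies left of the others, and in clone #12 it does so in the lower tail but nearly coincides with them around 0.

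The holders' median log2 difference was -0.03 in clone #12 and -0.10 in clone #14, against -0.01 and 0.03 in genes without the word. Taken over all lengths, the medians thus differed little. However, holders had longer 3′ UTRs, with a median of 2328 bases, against 952 bases without the word. In 4 classes from the shortest to the longest 3′ UTR, holders' median differences from the mean of the 4 siRNAs were -0.51, -0.37, -0.11 and 0.07. Genes without the word had -0.14, -0.03, 0.11 and 0.22, so the middle was lower in holders in each class. The word's share was 62.5% in the 16 genes with a difference under -2, 46.4% between -2 and -1.5, 36.1% between -1.5 and -1, and 22.2% between -1 and -0.5. It was 12.6% between -0.5 and 0 and 7.35% in genes higher by over 1.

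3′ UTR length and base composition also moved with the comparison. The median 3′ UTR was 937 bases in called-lower genes and 2047 bases in called-higher genes, against 1086 bases in all 11043. Median GC content of coding sequence plus 3′ UTR was 53.3% in called-lower genes and 43.8% in called-higher genes, against 48.9% in all. Their part in the called genes was not tested. With genes split into 4 equal classes by 3′ UTR length, holders were called lower in 35.4% of cases, against 3.06% of genes without the word, in the shortest class. The shares were 31.9% against 3.33% in the second class, 16.6% against 2.58% in the third and 5.93% against 1.12% in the longest. The difference between holders and the rest was therefore present at every length, and smaller in long 3′ UTRs.

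**Figure D5:**
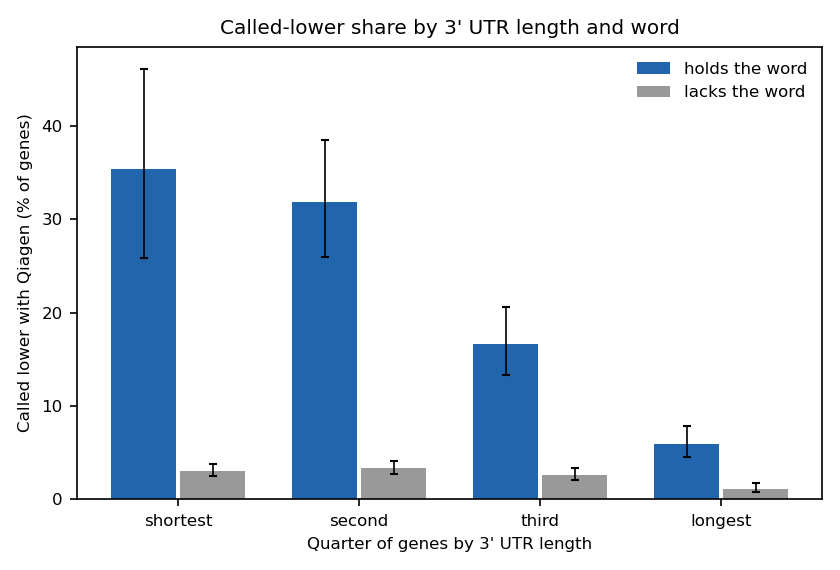
Share of genes called lower with Qiagen siRNA (y axis, %, from 0) in 4 equal classes of genes by 3′ UTR length (x axis), for genes that hold the 7-letter word (blue) and lack it (grey); bars show the 95% Wilson interval. Holders lie above the rest in each class, from 35.4% in the shortest to 5.93% in the longest. The word was chosen on these same libraries, and the intervals cover counting error only.

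Against untreated cells of the same clones, holders had a median log2 difference of -0.25 with Qiagen siRNA, against -0.11 with FLAG, -0.15 with HA, -0.19 with Nature and -0.11 with Life siRNA. Genes without the word had medians of 0.01 to 0.05 with all 5. These comparisons share the untreated libraries. The genes called lower than each of the 4 were chosen on these same Qiagen and other libraries, which in part fixes their order here, so their values are a description. Of these, 115 of the 116 with a 3′ UTR in the count were below untreated cells with Qiagen siRNA (median -0.95), against 23 to 33 of them with each of the other 4 (medians 0.14 to 0.31).

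The largest rises other than Ccnd1 were smaller, 2.32-fold to 2.94-fold, and less steady. These are rises over the mean of the other 4 siRNAs. Against untreated cells of the same clones, none of the 11 passed with Qiagen siRNA (edgeR quasi-likelihood test, adjusted p 0.0999 to 0.961). Their log2 differences from untreated cells ran from -0.53 (Ly75) to 1.45 (Trp53inp1). Smad9, a BMP-activated SMAD, had 5.76 and 9.34 CPM with Qiagen siRNA, against a lowest, median and highest of 1.27, 2.79 and 4.80 CPM (log2 difference 1.56, SE 0.32; edgeR adjusted p = 0.0111). Vgll3, a cofactor of TEAD factors, had 96.2 CPM in clone #12 and 1.02 CPM in clone #14, against 29.4 to 63.3 CPM and 0.142 to 0.422 CPM in the same clones (1.37, SE 0.21; edgeR adjusted p = 0.00150). The clones thus differed far more than the siRNAs. Csf1, the macrophage growth factor, had 332 and 119 CPM, against 156 to 240 CPM in clone #12 and 25.2 to 36.5 CPM in clone #14 (1.31, SE 0.20; edgeR adjusted p = 0.00172). Fgd3, an activator of CDC42, had 18.6 and 12.5 CPM, against 7.76 to 13.5 CPM and 2.68 to 3.96 CPM (1.35, SE 0.27; edgeR adjusted p = 0.00884). In all 4 of these both Qiagen libraries were above the other libraries of their own clone, as the rule that chose the rises required.

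Eif5a2, an isoform of eIF5A, the one protein that carries hypusine, had 13.5 and 8.18 CPM with Qiagen siRNA, against 0.819 to 8.68 CPM in the other libraries (log2 difference 1.22, SE 0.33; edgeR adjusted p = 0.0426). Its lowest levels, 0.819 and 2.12 CPM, were both with Nature siRNA, and SCR gave 11.1 and 10.9 CPM. Its difference from FLAG and HA siRNA was 0.61 and from Nature and Life siRNA 1.83. Trp53inp1, a p53-induced autophagy gene, had 19.2 and 16.9 CPM, close above Life siRNA with 17.7 and 15.5 CPM (1.30, SE 0.32; edgeR adjusted p = 0.0272). The rises of both genes thus rested on some of the 4 siRNAs more than on others.

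The other 5 were Ly75, an endocytic receptor (log2 difference 1.41), Zfp931, a zinc finger gene (1.37), Wisp1, a matricellular protein (1.28), Pcdh18, a protocadherin (1.24), and Ikzf2, the zinc finger factor Helios (1.21). Leaving out 1 library ended many of these calls. Without Qiagen clone #12, and likewise without Qiagen clone #14, 2 of the 11 rises other than Ccnd1 stayed called. Without FLAG clone #14, HA clone #14 or Life clone #14 it was 5 of 11, and without Nature clone #12 it was 6. With HA clone #12 or Nature clone #14 left out 8 stayed, and with FLAG clone #12 or Life clone #12 left out 9. No fold changed sign.

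Among 18 D cyclins and G1 regulators, Ccnd1 was higher and Ccne1 fell, and 16 did not pass the test (median log2 difference 0.03, against 0.00 for all genes tested). Of the 18, 10 had an unadjusted p under 0.05 in edgeR, Ccnd1 among them, against 3455 of all 14924 genes. The 11.1% called, against 6.31% of all genes, counts Ccnd1, on whose level the comparison was chosen, and without it Ccne1 alone passed. Ccne2, the other cyclin E gene, had 116 and 114 CPM with Qiagen siRNA, against 65.5 to 107 CPM with the others, and did not pass (0.49, SE 0.14; edgeR adjusted p = 0.0557). The cyclin E genes therefore pointed in opposite directions, with Ccne1 alone past the threshold. Both hold the word in the 3′ UTR, Ccne1 with 2 copies and Ccne2 with 1.

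Of 32 E2F factors and DNA replication genes, 1 rose and 2 fell (9.38%, against 6.31% of all genes). Mcm5, part of the replicative helicase, had 105 and 85.4 CPM with Qiagen siRNA, against 153 to 234 CPM (log2 difference -0.91, SE 0.13; edgeR adjusted p = 0.00100). E2f1 had 29.5 and 36.7 CPM, against 40.5 to 61.0 CPM (-0.72, SE 0.13; edgeR adjusted p = 0.00522). Neither overlapped between groups. Asf1b, a histone chaperone, had 41.0 and 77.3 CPM, against 12.0 to 90.8 CPM (0.77, SE 0.13; edgeR adjusted p = 0.00256). Its levels were close to those with FLAG and HA siRNA and above those with Nature and Life siRNA, with differences of -0.17 and 1.72. E2f1 lost its call without either Qiagen library and Asf1b without Qiagen clone #14.

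None of 27 mitosis and cytokinesis genes passed the edgeR test, and none had an unadjusted p under 0.05 (0 of 27; median log2 difference -0.01). Over all 14924 genes tested, 6.31% passed and 3455 had an unadjusted p under 0.05. Ccna2, cyclin A2, had 260 and 226 CPM with Qiagen siRNA, against 224 to 400 CPM (-0.32, SE 0.16; edgeR adjusted p = 0.241). Summed, with levels scaled over all 28 libraries as for the other list sums, the list reached 4321 and 4512 CPM with Qiagen siRNA, inside the range of 3670 to 5743 CPM with the others.

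Of 20 p53 target genes tested, 4 rose and 3 fell (35.0%, against 6.31% of all genes; median log2 difference -0.01). Rrm2b, a ribonucleotide reductase subunit, had 39.6 and 37.6 CPM with Qiagen siRNA, against 8.93 to 29.8 CPM (0.86, SE 0.18; edgeR adjusted p = 0.0120), and Ccng1, Plk2 and Trp53inp1 were the other rises. Singly, Rrm2b passed only against Nature siRNA (1.75; edgeR adjusted p = 0.000521), with differences of 0.44 to 0.70 from the others. Ei24, an autophagy membrane protein, had 44.3 and 31.9 CPM, against 72.8 to 121 CPM (-1.21, SE 0.14; edgeR adjusted p = 0.000110). Btg2, an antiproliferative gene, had 7.72 and 23.4 CPM, against 10.5 to 21.0 CPM in clone #12 and 24.3 to 69.8 CPM in clone #14 (-1.04, SE 0.20; edgeR adjusted p = 0.00883). Perp, a desmosome gene, was the third fall (-1.53). Cdkn1a and Mdm2, the best known p53 targets, did not pass, with differences of 0.03 and 0.05. The list moved in both directions. The Ei24 call held without each library in turn. Rrm2b and Ccng1 lost their calls without Qiagen clone #12, Btg2 without either Qiagen library, and Trp53inp1 as given among the largest rises, while Plk2 and Perp were not examined in this way.

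Of 25 RAS-MAPK output genes, 1 rose and 7 fell (32.0%, against 6.31% of all genes; median log2 difference -0.16). Hmga2, a chromatin protein raised in transformed cells, had 3643 and 2278 CPM with Qiagen siRNA, against 504 to 2379 CPM (1.00, SE 0.18; edgeR adjusted p = 0.00411). Its lowest levels were both with Life siRNA. The falls were Areg, Egr3, Fosb, Ier3, Junb, Spry1 and Spry2, which are early response genes, feedback inhibitors and a growth factor. Ier3 had 30.3 and 90.1 CPM with Qiagen siRNA, against 61.4 to 76.8 CPM in clone #12 and 122 to 312 CPM in clone #14 (-1.24, SE 0.23; edgeR adjusted p = 0.00666). Fosb had 2.18 and 2.59 CPM, against 4.33 to 10.7 CPM (-1.30, SE 0.26; edgeR adjusted p = 0.00992), and Areg, an EGF receptor ligand, fell by 0.94. Each of these was below all 4 others in its own clone. In untreated cells Ier3 measured 33.0 and 61.3 CPM and Fosb 4.01 and 2.60 CPM. All 4 values lay below the other siRNAs of the same clone. Fos, Egr1 and Dusp6 of the same list did not pass (-0.49, -0.27 and 0.12). Ier3, Fosb and Spry2 lost their calls without either Qiagen library, and Hmga2 without Qiagen clone #12.

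Histone genes in clusters showed the largest median among the lists, -1.06 over 14 members, of which 2 fell (14.3% called, against 6.31% of all genes), 0 rose and 12 had a negative value. Among all 14924 genes tested, 7508 had a positive value. Hist1h1c, a linker histone, had 1.37 and 5.51 CPM with Qiagen siRNA, against 2.74 to 3.60 CPM in clone #12 and 7.43 to 18.1 CPM in clone #14 (-1.15, SE 0.25; edgeR adjusted p = 0.0149). Hist1h4i was the other (-1.48, SE 0.39; edgeR adjusted p = 0.0368). The summed list gave 11.6 and 28.4 CPM with Qiagen siRNA, against 21.0 to 77.7 CPM. Most histone mRNAs lack a poly(A) tail, so a poly(A) library holds a small part of them, and near-identical members may share reads. Both calls were lost without either Qiagen library, and that of Hist1h4i also without FLAG clone #12, FLAG clone #14, HA clone #14, Nature clone #14 or Life clone #14.

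Of 24 glycolysis and hypoxia genes, 2 rose and 2 fell (16.7%, against 6.31% of all genes; median -0.14). Pfkl, a phosphofructokinase subunit, had 75.9 and 42.0 CPM with Qiagen siRNA, against 169 to 213 CPM in clone #12 and 90.4 to 112 CPM in clone #14 (-1.28, SE 0.12; edgeR adjusted p = 1.51e-05). Its call held without each library, and its 3′ UTR holds the word. Ndrg1 fell too (-0.67), while Pfkfb3 (0.88) and Pdk1 (0.41) rose. Those 3 calls were each lost without either Qiagen library, and Pdk1 lost its call in 9 of the 10 cases, all but Nature clone #12.

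Of 24 cholesterol synthesis genes, Idi1, the isopentenyl diphosphate isomerase, alone passed (4.17%, against 6.31% of all genes; median -0.12). It had 178 and 126 CPM with Qiagen siRNA, against 207 to 454 CPM (-1.14, SE 0.14; edgeR adjusted p = 0.000244). Idi1 did not overlap between groups and holds the word in its 3′ UTR. Other enzymes of the pathway, such as Fdft1 (-0.42) and Cyp51 (-0.48), did not pass.

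Of 16 genes of the RNA interference machinery, 1 rose and 1 fell (12.5%, against 6.31% of all genes; median 0.20). Tarbp2, the partner of Dicer that loads guides, had 40.6 and 44.9 CPM with Qiagen siRNA, against 58.8 to 101 CPM (-0.87, SE 0.18; edgeR adjusted p = 0.0108). Ago1, an Argonaute, had 51.0 and 49.2 CPM, against 10.6 to 42.2 CPM (0.83, SE 0.22; edgeR adjusted p = 0.0396). The groups did not overlap in either. Singly, Ago1 passed only against Nature siRNA (1.77; edgeR adjusted p = 0.00229). Its differences from FLAG, HA and Life siRNA were 0.25, 0.73 and 0.55. Tarbp2 lost its call without Qiagen clone #12, and Ago1 without any library except Nature clone #14 and Life clone #12.

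Of 24 TGF-beta and BMP targets, Id2 rose (0.75) and Acvr1, an activin and BMP receptor (-0.98), and Bmp2 (-1.06) fell (12.5% called, against 6.31% of all genes). Of 28 matrix and contractile genes, Timp3, a metalloprotease inhibitor, rose (0.95) and Thbs2, a matrix glycoprotein, fell, with 16.1 and 15.1 CPM against 22.6 to 67.7 CPM (-1.37, SE 0.18; edgeR adjusted p = 0.000527). Of 26 lysosome and autophagy genes Ulk1 (0.97) and Lamp2 (0.54) rose. Singly, Lamp2 passed only against Nature siRNA (1.27; edgeR adjusted p = 0.000346), with differences of 0.15 to 0.46 from the others. The shares called in the last 2 lists, 7.14% and 7.69%, were near that of all genes. Of these, the Thbs2 call held without each library. Id2 and Bmp2 lost theirs without either Qiagen library, Acvr1 and Ulk1 without Qiagen clone #14, Lamp2 without Qiagen clone #12, FLAG clone #12, FLAG clone #14, HA clone #12 or Life clone #14, and Timp3 without any library except Nature clone #14 and Life clone #12.

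Few genes of cell death, innate sensing and stress passed the test. Of 25 caspases and pro-apoptotic genes Bcl2l11, which encodes BIM, rose (0.54), and 0 of 9 anti-apoptotic genes passed the edgeR test, 2 of them with an unadjusted p under 0.05. All 9 had a positive difference (median 0.21), and the list summed to 721 and 785 CPM with Qiagen siRNA, against 531 to 658 CPM, with no overlap. Of 24 interferon-stimulated genes and RNA sensors Eif2ak2, the kinase PKR, rose (0.51) and Ifit3 fell (-1.13). Of 20 NF-kB targets Csf1 and Tnfaip3 (0.49) rose. Of 24 stress response genes Shmt2 rose (0.56), by 1.12 over FLAG and HA siRNA and by 0.0009 over Nature and Life siRNA. Of these 24, 7 had a positive difference and 9 lay below all 4 other siRNAs in both clones (median -0.21). Among all 14924 genes tested, 7508 had a positive difference and 1667 lay below all 4 in both clones. None of 18 heat shock genes passed (0 in edgeR, 2 at an unadjusted p under 0.05). Over all 14924 genes tested, 3455 had an unadjusted p under 0.05. The shares called, 0% to 10.0%, were near or under the 6.31% of all genes in lists this small. Eif2ak2 and Ifit3 lost their calls without either Qiagen library, and Bcl2l11 also without FLAG clone #14. Tnfaip3 kept its call without HA clone #12 or Nature clone #14 and lost it in the other 8 cases. Shmt2 lost its call without Qiagen clone #14, FLAG clone #14, HA clone #14, Nature clone #14, Life clone #12 or Life clone #14.

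Among markers of cell types, Thy1 of the 10 fibroblast markers fell, with 9.29 CPM in Qiagen clone #12, against 26.8 to 33.4 CPM in that clone (log2 difference -1.66, SE 0.33; edgeR adjusted p = 0.00901). In clone #14 it was at 0 with Qiagen siRNA and at most 0.0384 CPM with the others, so the fall was measured in clone #12 alone. Tubb3 of 7 neural markers fell as well (-1.31, SE 0.19; edgeR adjusted p = 0.00103), with 3.35 and 2.48 CPM against 2.68 to 14.9 CPM. The Thy1 call was lost without any clone #12 library or Life clone #14, and that of Tubb3 without Qiagen clone #12. In the macrophage, endothelial, epithelial and myogenic lists 0 of 4, 8, 6 and 3 genes tested passed in edgeR, and 2 epithelial genes had an unadjusted p under 0.05. The shares called were 10.0% of fibroblast, 14.3% of neural and 0% of the other markers tested, against 6.31% of all genes. The epithelial list summed to 122 and 2872 CPM with Qiagen siRNA, against 233 to 3697 CPM, and the part of such shifts in the results was not tested.

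Over the members of all lists together other than Ccnd1 and Ccne1, 11 of 24 called-lower genes held the word in the 3′ UTR and 2 of 18 called-higher genes did. Among all called genes in the count, 45.5% of the lower and 7.74% of the higher held it. The list members were thus near the general shares. The called-lower holders included E2f1, Btg2, Perp, Idi1, Fosb, Egr3, Spry1, Thbs2, Pfkl and Thy1. Mcm5, Ei24, Ier3, Tarbp2 and Tubb3 fell without holding it there.

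Set against single siRNAs, Qiagen differed from FLAG in 358 genes (2.40%), from HA in 715 (4.79%), from Nature in 1027 (6.88%) and from Life in 789 (5.29%). Against the mean of the tag siRNAs it was 816 genes (5.47%), and against the mean of Nature and Life 841 (5.64%). These comparisons share the Qiagen libraries. The count against FLAG was then 178 and 132 without Qiagen clone #12 and #14, and 134 and 81 without FLAG clone #12 and #14. Against HA it was 226 without Qiagen clone #12, and 260 and 162 without HA clone #12 and #14. Against Nature it was 351 without Qiagen clone #12 and 340 without Nature clone #12. Against Life it was 447 and 276 without Qiagen clone #12 and #14, and 478 and 164 without Life clone #12 and #14.

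For the means of a pair of siRNAs the counts moved in the same way. Against FLAG and HA it was 216 and 323 without Qiagen clone #12 and #14, 379 and 304 without FLAG clone #12 and #14, and 438 and 387 without HA clone #12 and #14. Against Nature and Life it was 236 and 338 without Qiagen clone #12 and #14, 488 without Nature clone #12 and 342 without Life clone #14. Polr2m differed by -2.63 from the tag siRNAs and by -2.77 from Nature and Life, and Rps6ka4 by -2.12 and -2.13.

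When each siRNA in turn was set against the mean of its other 4, FLAG gave 87 genes (0.583%), HA 315 (2.11%), Nature 759 (5.09%) and Life 1065 (7.14%), beside the 941 of Qiagen. These comparisons use the same 10 libraries. The deviations of the 2 clones from their own means over 14924 genes correlated at 0.37 with Qiagen siRNA, 0.22 with FLAG, 0.32 with HA, 0.18 with Nature and 0.40 with Life. These are correlations across genes, which are not independent and share library and depth. By number of called genes Qiagen siRNA stood between Nature and Life siRNA.

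The Qiagen difference itself was not found to differ between clones in edgeR: 0 of 14924 genes passed the test of clone #12 against clone #14 (0%; 688 with an unadjusted p under 0.05, smallest adjusted p 0.876). DESeq2 called 2, Calcrl and Ppp2r5a, which were named after their values were seen.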

How the data were processed

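Raw counts per gene were deposited by the authors as 1 table of 24079 rows and 28 libraries, and the submitters' processing notes name mm10, HTSeq 0.6.1p1, Bowtie2 2.2.3, TopHat2 2.0.13, FastQC and CASAVA 1.8.2. No source used here gives the gene annotation or the strand setting: overlapping, antisense and near-identical genes may share reads. The 22 rows without a gene ID took at most 0.0137% of a library.

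The test was that of edgeR 4.0.16 (R 4.3.3), after filterByExpr and TMM, from a robust quasi-likelihood fit of the 24 libraries without SCR siRNA (13 groups, 15 coefficients, 9 residual degrees of freedom), with clone as a block. The pairing comes from the clone in the labels, and the deviations of same-clone libraries correlated in all 42 pairs (lowest 0.861). SCR levels and list sums use TMM factors of all 28 libraries, other CPM those of the 24. The SE is the log2 difference over the square root of F. The biological coefficient of variation was 17.9%. No pair of the 10 libraries agreed within sampling noise (45 pairs, lowest chi-square per degree of freedom 54.3).

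Named genes were the D cyclins, the 12 largest rises and falls among called genes of at least 1 CPM apart from all 4 others in both clones, and up to 4 members of each list by p. Other called list members, given by their difference, were added after their values were seen. Members and lists were chosen with earlier results of these data known. The 3′ UTR word was found in these data. Transcripts were the best APPRIS transcript of GENCODE M21 basic (13854 tested genes matched). A simulation of the comparison with 50 genes per size recovered 37 and 39 at log2 changes of -1 and 1, and 44 and 47 at -2 and 2, with 7 false among 174 calls (14805 genes). Alternatives were other size factors, filters, fits and libraries, and DESeq2 1.42.0.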

Additional observations from a re-analysis of the deposited data

How the results depend on the processing

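The fit of 24 libraries gave 941 called genes, and 836 to 1382 with other size factors, filters, a non-robust fit, all 28 libraries or no Rn45s row. Without the libraries over 2% Rn45s, an alternative chosen after seeing the data, it gave 660, and 270 against Nature and Life, 310 against HA and 168 against Life. With no replicate block, so unpaired, the counts were 85 against the mean of 4, 84 against FLAG and HA, 112 against Nature and Life, 50 against FLAG, 80 against HA, 192 against Nature, 122 against Life and 78 apart from every other siRNA. With only the 10 libraries of the targeting siRNAs they were 1575 against the mean of 4, 1449 against FLAG and HA, 1462 against HA, 1897 against Nature and 1294 apart. With all 28 libraries the count against HA was 1120. DESeq2 gave 1796 against the mean of 4, 1686 against FLAG and HA, 1530 against Nature and Life, 857, 1675, 1883 and 1408 against FLAG, HA, Nature and Life, 1416 apart, and 2 between clones. The cause was not tested.

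Leaving out 1 library gave 182 to 981 against the mean of 4, 216 to 820 against FLAG and HA, 236 to 737 against Nature and Life, 81 to 347 against FLAG, 162 to 752 against HA, 340 to 945 against Nature, 164 to 780 against Life and 173 to 845 apart. A group left with 1 library is assumed to vary like the others.

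The log2 difference of Ccnd1 was 1.55 to 1.70 with 1 library left out. The share of called-lower genes that hold the word, read under alternatives chosen after seeing the data, was 65.2% with no replicate block, 35.1% with the 10 libraries, 40.0% with all 28, 33.0% with DESeq2, 43.0% to 67.7% with 1 library left out and 46.0% with the longest 3′ UTR of each gene. Of 2314 values of named genes under 20 alternatives, 209 lost a call, 71 gained one and 0 reversed. With no replicate block 10 of the 12 largest falls and 0 of the 11 rises other than Ccnd1 stayed called. The test between clones gave 0 genes with 1 library of another siRNA left out. It could not be fitted without a Qiagen library or without the block.

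Each siRNA had 2 libraries, 1 per clone, so a difference in 1 clone cannot be told apart from that library's own deviation. Genes near 1 CPM carry the largest errors, and with Rfx2 at 0.305 CPM small differences were not detectable. Only 1 transcript per gene was read for the word, and its use in these cells was not measured.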
